A study of Mus musculus with 8 samples.

Results

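The 42 rows whose names begin with U1 and a dot were described here, out of 964 rows of small non-coding RNA measured in cultured mouse blood progenitors. They were chosen by name alone, with no filter on level, and the names carry the form of an annotated transcript of a U1 small nuclear RNA (snRNA) gene copy. The cells were GMLPs, granulocyte-monocyte-lymphoid progenitors sorted from mouse bone marrow. There were 4 libraries from iMLL-ENL mice, whose cells carry an inducible MLL-ENL, and 4 libraries from wild-type (WT) mice. MLL-ENL is a fusion protein found in leukaemia, made of the N-terminal part of MLL, a histone methyltransferase, and of ENL, a component of transcription elongation complexes. Cells of both groups, WT included, were cultured for 3 days with doxycycline, an antibiotic used to switch on inducible genes, and total RNA was made into libraries with a kit for miRNAs. The labels give neither the age of the mice, nor what drives the inducible gene, nor whether each replicate is a mouse of its own. The p-values therefore refer to the spread between these libraries, which may be technical. Marker genes of the sorted cells and the level of the fusion were not analysed here, since the table is of small non-coding RNA. In pooled cells, a change in the make-up of the culture and a change in RNA per cell cannot be told apart.

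U1 snRNA is the RNA of the U1 particle, which recognises the start of an intron in a pre-mRNA by base pairing of its own 5′ end with the 5′ splice site. It is one of the most abundant non-coding RNAs of the nucleus, carries a ring of Sm proteins on a short uridine-rich site near its 3′ end, and also protects transcripts from premature cleavage and polyadenylation inside introns. In mouse, U1 is encoded by many gene copies in classes called U1a and U1b. U1a is made in all tissues, whereas U1b is known from embryonic tissues and from some adult tissues.

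The reference sequences below show how alike U1 genes are, and that many short stretches of sequence occur in more than 1 copy. They are the annotated Rnu1a1, Rnu1b1 and Rnu1b6 genes of GENCODE release M21 on GRCm38, the build of the deposited values per the submitters' processing notes. Rnu1a1 lies at chr11:87422867-87423030 on the plus strand and is 164 bases long. Rnu1b1 lies at chr3:96359953-96360117 on the minus strand and is 165 bases long, and Rnu1b2 at chr3:96374021-96374185 on the plus strand has the identical sequence. Rnu1b6 lies at chr3:96460024-96460189 on the minus strand and is 166 bases long. All are annotated as snRNA genes. Each sequence is given 5′ to 3′ on the strand of the transcript, and capitals mark bases that differ from Rnu1a1 in an alignment of the whole lengths, or, in Rnu1a1 itself, bases that differ from Rnu1b1.
Rnu1a1: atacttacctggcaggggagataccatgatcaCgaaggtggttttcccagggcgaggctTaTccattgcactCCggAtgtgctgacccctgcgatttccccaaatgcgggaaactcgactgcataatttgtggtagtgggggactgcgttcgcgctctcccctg
Rnu1b1: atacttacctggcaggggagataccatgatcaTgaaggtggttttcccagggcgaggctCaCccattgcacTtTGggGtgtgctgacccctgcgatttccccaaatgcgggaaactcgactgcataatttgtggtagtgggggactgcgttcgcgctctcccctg
Rnu1b6: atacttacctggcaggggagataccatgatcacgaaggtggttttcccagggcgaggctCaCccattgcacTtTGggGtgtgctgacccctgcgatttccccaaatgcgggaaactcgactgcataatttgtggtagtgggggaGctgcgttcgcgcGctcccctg
With positions counted from 1 at the 5′ end of Rnu1a1, Rnu1b1 differed from Rnu1a1 by C33T, T60C, T62C, C73T, C74G and A77G and by 1 inserted base, an identity of 95.8%. Rnu1b6 shared T60C, T62C, C73T, C74G and A77G, had T156G besides, and held 2 inserted bases, an identity of 95.2%. Of the 146 windows of 20 bases in Rnu1b1, 88 (60.3%) also occurred in Rnu1a1, and of its 116 windows of 50 bases, 38 (32.8%) did. All these genes begin with the same 11 bases, ATACTTACCTG, which hold the stretch that pairs with the 5′ splice site, and all hold the letters TTTGTGG of the Sm site.

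Among the 1383 snRNA transcripts of the same annotation, 34 were at least 90% identical to Rnu1a1 or Rnu1b1, of which 22 were closer to Rnu1a1 and 12 to Rnu1b1. Of these, 7 had the exact sequence of Rnu1a1, itself included, and 2 that of Rnu1b1. ATACTTACCTG, searched at the 5′ end of each transcript on its own strand only, opened 30 of the 34, against 46 of all 1383 (3.33%). TTTGTGG, searched anywhere on the same strand, occurred in 31 of the 34 and in 92 of all 1383 (6.65%). Because the 34 were chosen for their likeness to U1, these counts describe them and test nothing. None of the 42 row names occurs in that annotation, so no row is given coordinates, a class or a sequence here, and which of the rows are U1a, U1b or a variant was not analysed.

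Values are reads scaled to 1000000 per library (RPM), not divided by length. The lengths behind the row names are not stated, so a difference in level between rows or families also holds any difference in length. How reads that match several copies were divided is not stated either, so the level of a single copy is uncertain and rows of nearly the same level need not be separate measurements. The U1 genes printed above are 164 to 166 bases long, whereas the library kit was for miRNAs. The length of the reads was not analysed, nor whether they came from whole U1 or from pieces of it. Levels, sums and ratios are therefore of reads and need not be amounts of whole snRNA. A read was worth 0.108 to 0.169 RPM, and the U1 rows held an estimated 45374 to 241754 reads per library.

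The 42 rows fell into levels that lay far apart, and they were divided at means of 500 and 50 RPM over the 8 libraries, limits set after the values were seen and with no gene class behind them. The 16 abundant rows had means of 809 to 986 RPM, so that the highest was 1.22 times the lowest. The 4 intermediate rows, U1.199-201, U1.210-201, U1.83-201 and U1.195-201, had means of 98.7 to 134 RPM. The other 22 rows were low, with means of 1.74 to 27.8 RPM. The abundant rows made up 94.8, 95.6, 94.5 and 94.9% of the U1 sum in iMLL-ENL replicates 1 to 4, against 96.7, 97.5, 95.5 and 97.1% in WT replicates 1 to 4.

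**Figure D1:**
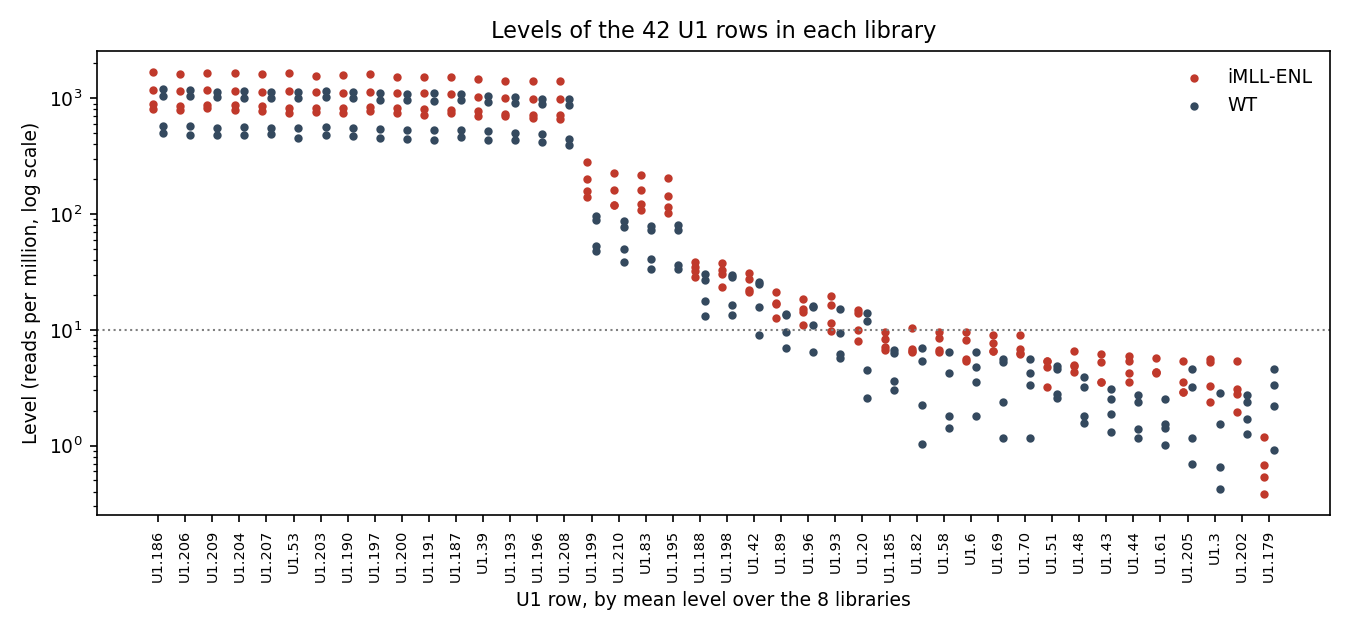
The level of each of the 42 U1 rows in RPM (vertical axis, log scale) in every library, with rows ordered by their mean over the 8 libraries and iMLL-ENL left of WT. Points are libraries, and the dotted line is the 10 RPM used to choose the rows tested. The 16 abundant rows form a flat line, the 4 intermediate rows sit well below them with all iMLL-ENL points above all WT points, and the 22 low rows follow to the right.

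Abundant rows varied together from library to library, as did intermediate rows, whereas low rows did so to very different degrees. The correlation of log2(RPM + 1) between pairs of abundant rows over the 8 libraries was 0.995 to 0.9999, with a median of 0.999. Between pairs of intermediate rows it was 0.990 to 0.998, with a median of 0.994. Between an abundant and an intermediate row it was lower, 0.806 to 0.902, with a median of 0.857. Between pairs of low rows it spanned -0.66 to 0.988, with a median of 0.773, and between an abundant and a low row it spanned -0.469 to 0.902, with a median of 0.173. These correlations are over all 8 libraries, share their depth and group, and describe the rows without testing them.

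As a whole, U1 varied more between libraries of the same group than between the groups. The U1 sum was 13710.3, 26067, 12674 and 18555 RPM in iMLL-ENL replicates 1 to 4, against 8864, 15979.6, 7672 and 18178 RPM in WT replicates 1 to 4. The highest iMLL-ENL library was replicate 2 and the highest WT library replicate 4, and the ranges overlapped. The mean was 17752 ± 6108 RPM in iMLL-ENL and 12674 ± 5188 RPM in WT (SD, n = 4 each), a ratio of 1.40. On the log2(RPM + 1) scale the difference was 0.52 ± 0.34 (SE), and it did not pass the test (limma over 67 families summed by name, Benjamini-Hochberg adjusted p = 0.22), in which 44.8% of the families passed. The 95% interval of the fold ran from 0.840 to 2.46. Scaling moved this value, to 0.12 with TMM scaling (adjusted p = 0.825) and to 0.84 when the library total used for scaling omitted the 5 highest rows of the table (adjusted p = 0.0478, past the threshold). In the main scaling with the replicate number as a block, the difference was 0.52 ± 0.17 (SE, limma adjusted p = 0.0578). U1 made up 4.80, 9.75, 4.88 and 6.36% of the sum of all rows in iMLL-ENL replicates 1 to 4, against 2.65, 4.16, 2.30 and 6.06% in WT replicates 1 to 4.

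**Figure D2:**
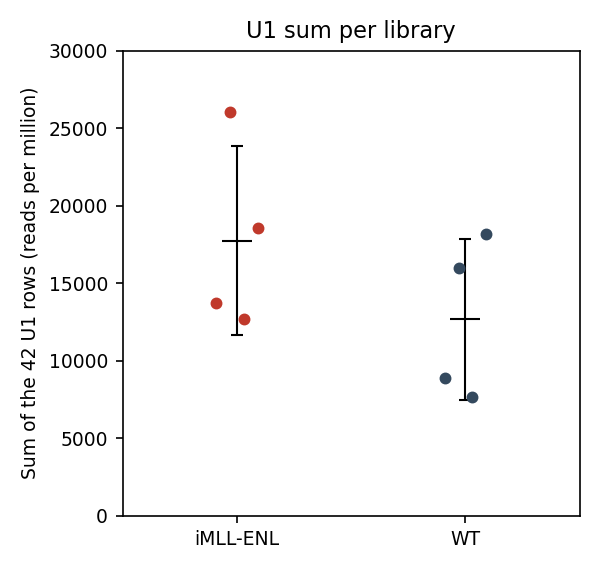
The sum of the 42 U1 rows in RPM (vertical axis, starting at 0) in each library of iMLL-ENL and WT. Points are libraries, the long bar is the mean and the whiskers 1 SD (n = 4 each). The iMLL-ENL libraries sit between 12674 and 26067 and the WT libraries between 7672 and 18178, so the groups overlap.

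The composition of the U1 sum differed between the groups. The 4 intermediate rows were higher in iMLL-ENL cells, both in level and as a share of the U1 sum, and no tested U1 row was called lower in level. Together they made up 3.77, 3.57, 3.71 and 3.59% of the U1 sum in iMLL-ENL replicates 1 to 4, against 2.03, 1.995, 2.003 and 1.85% in WT replicates 1 to 4. The means were 3.66 ± 0.0959% in iMLL-ENL and 1.97 ± 0.0825% in WT (SD, n = 4 each). The lowest iMLL-ENL library lay far above the highest WT library, although the U1 sum itself varied 3.40 times between libraries.

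The test took rows with 10 RPM or more in 4 or more libraries, namely 27 of the 42 U1 rows and 633 of all 964 rows. The 27 include every abundant and intermediate row and 7 of the 22 low rows. Of the 27, 4 were called higher in level and 0 lower at an adjusted p under 0.05 (limma on log2(RPM + 1), Benjamini-Hochberg over the 633 rows). In the same fit, 20.4% of the 633 rows were called higher, 8.53% lower and 28.9% in either direction, so the number of calls alone does not set the U1 rows apart. All 27 U1 differences were above 0, with a median of 0.51, as were 448 of the 633, with a median of 0.31 that became -0.08 with TMM scaling, under which the same 4 U1 rows were called. Of the shares of the U1 sum, 4 of 27 were called higher and 1 lower, where 10.8% of 630 rows were called higher, 13.5% lower and 24.3% in either direction as shares of their own families. The median difference in share was -0.01 for the U1 rows and -0.01 for all 630 rows on the log2 scale. With sample quality weights, 26 of the 27 were called higher in level, the 16 abundant rows among them. The share of all 633 rows called with these weights is not given here, so this count does not set the U1 rows apart. The groups did not overlap in level for 4 of the 27, all higher in iMLL-ENL, where 27.2% of the 633 rows were higher without overlap and 11.4% lower. These 4, the 4 called higher in level and the 4 called higher in share were the same rows, the 4 intermediate ones. Scaling moved the size of their differences in level, which were 1.32 to 1.45 in the main fit. They were 0.92 to 1.06 with TMM scaling and 1.63 to 1.77 when the scaling total omitted the 5 highest rows.

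U1.199-201 was the highest of the intermediate rows. Its level was 158, 284, 140.2 and 201 RPM in iMLL-ENL replicates 1 to 4, against 53.5, 95.8, 47.7 and 89.6 RPM in WT replicates 1 to 4. It made up 1.15, 1.09, 1.11 and 1.08% of the U1 sum in iMLL-ENL replicates 1 to 4, against 0.603, 0.600, 0.621 and 0.493% in WT replicates 1 to 4. Every iMLL-ENL library was above every WT library in both measures. The share averaged 1.11 ± 0.0328% in iMLL-ENL and 0.579 ± 0.0585% in WT (SD, n = 4 each), a ratio of 1.91. The difference in level was 1.45 ± 0.30 on the log2(RPM + 1) scale (SE, limma adjusted p = 0.0117) and that in share 0.93 ± 0.0881 (SE, limma adjusted p = 0.000405).

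U1.83-201 had 122, 217, 109 and 160.2 RPM in iMLL-ENL replicates 1 to 4, against 40.9, 72.9, 33.6 and 78.2 RPM in WT replicates 1 to 4. It made up 0.893, 0.832, 0.858 and 0.863% of the U1 sum in iMLL-ENL replicates 1 to 4, against 0.461, 0.456, 0.439 and 0.430% in WT replicates 1 to 4, and neither its levels nor its shares overlapped between the groups. The share averaged 0.862 ± 0.0251% in iMLL-ENL and 0.446 ± 0.0145% in WT (SD, n = 4 each), a ratio of 1.93. The difference was 1.45 ± 0.32 in level (log2 scale, SE, limma adjusted p = 0.0148) and 0.93 ± 0.0589 in share (limma adjusted p = 0.000113).

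U1.210-201 had 120.4, 224, 119 and 162 RPM in iMLL-ENL replicates 1 to 4, against 49.5, 77.5, 38.7 and 87.04 RPM in WT replicates 1 to 4. Its share was 0.878, 0.861, 0.940 and 0.874% of the U1 sum in iMLL-ENL replicates 1 to 4, against 0.559, 0.485, 0.505 and 0.479% in WT replicates 1 to 4, again with no overlap. The share averaged 0.888 ± 0.0355% in iMLL-ENL and 0.507 ± 0.0364% in WT (SD, n = 4 each), a ratio of 1.75. Its difference was 1.32 ± 0.30 in level (log2 scale, SE, limma adjusted p = 0.0170) and 0.80 ± 0.0740 in share (limma adjusted p = 0.000364).

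U1.195-201 had 116, 206, 102 and 143 RPM in iMLL-ENL replicates 1 to 4, against 35.97, 72.6, 33.6 and 80.9 RPM in WT replicates 1 to 4. Its share was 0.847, 0.790, 0.802 and 0.770% of the U1 sum in iMLL-ENL replicates 1 to 4, against 0.406, 0.454, 0.439 and 0.445% in WT replicates 1 to 4, and the groups did not overlap in either measure. The share averaged 0.802 ± 0.0323% in iMLL-ENL and 0.436 ± 0.0211% in WT (SD, n = 4 each), a ratio of 1.84. Its difference was 1.38 ± 0.34 in level (log2 scale, SE, limma adjusted p = 0.0223) and 0.86 ± 0.0641 in share (limma adjusted p = 0.000175). The level call of this row was lost without iMLL-ENL replicate 2, iMLL-ENL replicate 4 or WT replicate 1, with adjusted p of 0.0541, 0.0557 and 0.0657. Without WT replicate 1 the level calls of U1.83-201 and U1.210-201 were lost too, with adjusted p of 0.0536 and 0.0574, which left 1 of 27 rows called, U1.199-201. The share calls of all 4 rows held without each of the 8 libraries in turn, WT replicate 2 included, which stood apart from the other libraries with a mean correlation of 0.908 with its own group.

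**Figure D3:**
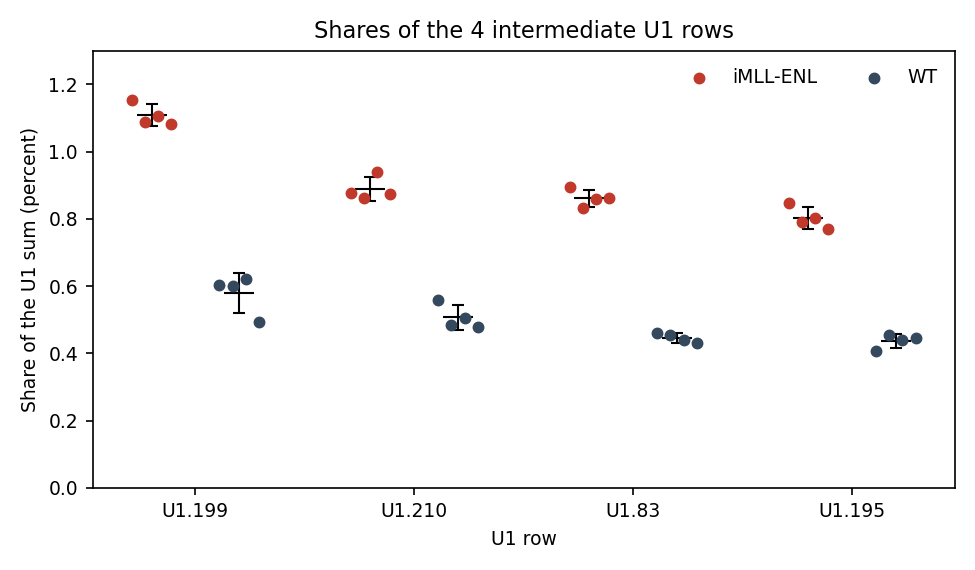
Each intermediate row as a percentage of the U1 sum (vertical axis, starting at 0) in each library, with iMLL-ENL left of WT for each row. Points are libraries, the long bar is the mean and the whiskers 1 SD (n = 4 each). For every one of the 4 rows all iMLL-ENL points lie above all WT points, for U1.199-201 at 1.08 to 1.15% against 0.493 to 0.621%.

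The 4 rows held an estimated 199 to 2632 reads per library. For U1.199-201 the lowest lower bound of the Wilson 95% intervals of the share among iMLL-ENL libraries was 1.03%, above the highest upper bound among WT libraries, 0.698%. The same bounds were 0.797% in iMLL-ENL and 0.517% in WT for U1.83-201, 0.823% in iMLL-ENL and 0.620% in WT for U1.210-201, and 0.727% in iMLL-ENL and 0.504% in WT for U1.195-201. Such intervals cover counting error only, and reads assigned among near-identical copies are not independent.

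The levels of the 4 rows relative to one another varied between libraries, in ratios that rest on as few as 199 estimated reads for a row. The counting error of these ratios was not estimated, so their spread does not show that the rows behave separately. Over the 8 libraries, U1.199-201 was 1.11 to 1.49 times the level of U1.195-201, 1.15 to 1.42 times that of U1.83-201 and 1.03 to 1.32 times that of U1.210-201. U1.210-201 was 1.04 to 1.38 times the level of U1.195-201. U1.83-201 was 0.967 to 1.14 times the level of U1.195-201 and 0.825 to 1.02 times that of U1.210-201. Set against the mean abundant row of the same library, U1.199-201 reached 19.5, 18.2, 18.7 and 18.3% in iMLL-ENL replicates 1 to 4, against 9.98, 9.85, 10.4 and 8.12% in WT replicates 1 to 4. The other 3 rows averaged 15.0% of it in iMLL-ENL and 8.39% in WT for U1.210-201, 14.5% in iMLL-ENL and 7.39% in WT for U1.83-201, and 13.5% in iMLL-ENL and 7.21% in WT for U1.195-201. These percentages are of levels not divided by length, and their comparison between groups does not depend on the length of a row.

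The 16 abundant rows varied together and made up the bulk of the U1 sum. None was called in level, with differences of 0.45 to 0.55 on the log2(RPM + 1) scale and limma adjusted p of 0.249 to 0.348, and all 16 had overlapping groups. Scaling moved these differences. For the 6 abundant rows given by library here, they were 0.05 to 0.15 with TMM scaling and 0.76 to 0.86 when the scaling total omitted the 5 highest rows, again with none called. The 5 rows with the highest means had close values in every library. U1.186-201 had 890.2, 1689, 802 and 1188 RPM in iMLL-ENL replicates 1 to 4, against 578, 1045, 506 and 1193 RPM in WT replicates 1 to 4. Its difference was 0.49 ± 0.35 (SE, adjusted p = 0.296), and the 95% interval of its fold ran from 0.815 to 2.43.

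U1.206-201 had 851, 1634, 799 and 1165 RPM in iMLL-ENL replicates 1 to 4, against 577, 1039, 481 and 1180.0 RPM in WT replicates 1 to 4. U1.209-201 had 871, 1647, 821 and 1179 RPM in iMLL-ENL replicates 1 to 4, against 551, 1015, 481 and 1133 RPM in WT replicates 1 to 4. In both rows, as in U1.186-201, iMLL-ENL replicate 2 was the highest library, WT replicate 4 the highest of WT, and WT replicate 3 the lowest of all. U1.204-201 had 872, 1645, 789 and 1163 RPM in iMLL-ENL replicates 1 to 4, against 565, 1008, 484 and 1159.8 RPM in WT replicates 1 to 4. U1.207-201 had 858, 1618, 779.6 and 1128 RPM in iMLL-ENL replicates 1 to 4, against 552, 1002, 487 and 1141 RPM in WT replicates 1 to 4. The same libraries were again highest and lowest.

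As shares of the U1 sum, the abundant rows differed by -0.08 to 0.02 on the log2 scale, with standard errors of 0.0214 to 0.0364. The mean share was lower in iMLL-ENL for 13 of the 16, and the groups did not overlap for 6 of these, U1.186-201, U1.187-201, U1.190-201, U1.193-201, U1.196-201 and U1.203-201. Over the 27 tested U1 rows, 4 did not overlap and were higher as shares and 6 did not overlap and were lower, where 14.9% and 16% of the 630 rows did so. Shares of a sum are not free of each other, so a higher share of the intermediate rows lowers that of the rest by construction. U1.203-201 alone was called lower. Its level was 823, 1566, 756 and 1131 RPM in iMLL-ENL replicates 1 to 4, against 559, 1029.6, 480.2 and 1156 RPM in WT replicates 1 to 4, and the difference in level was 0.45 ± 0.35 (SE, limma adjusted p = 0.348). It made up 6.002, 6.01, 5.97 and 6.09% of the U1 sum in iMLL-ENL replicates 1 to 4, against 6.31, 6.44, 6.26 and 6.36% in WT replicates 1 to 4. The share averaged 6.02 ± 0.0546% in iMLL-ENL and 6.34 ± 0.0786% in WT (SD, n = 4 each), and the difference was -0.08 ± 0.0230 (log2 scale, SE, limma adjusted p = 0.0478). This call was lost without each of the 8 libraries in turn, with adjusted p of 0.0598 to 0.124, and with the replicate number as a block, with adjusted p of 0.126. The share of U1.186-201, the most abundant row, averaged 6.43 ± 0.0752% in iMLL-ENL and 6.55 ± 0.0311% in WT (SD, n = 4 each), and that of U1.209-201 averaged 6.38 ± 0.0704% in iMLL-ENL and 6.27 ± 0.0593% in WT (SD, n = 4 each), neither called. The 95% interval of the fold in share was 0.947 to 1.01 for U1.186-201 and 0.981 to 1.05 for U1.209-201.

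**Figure D4:**
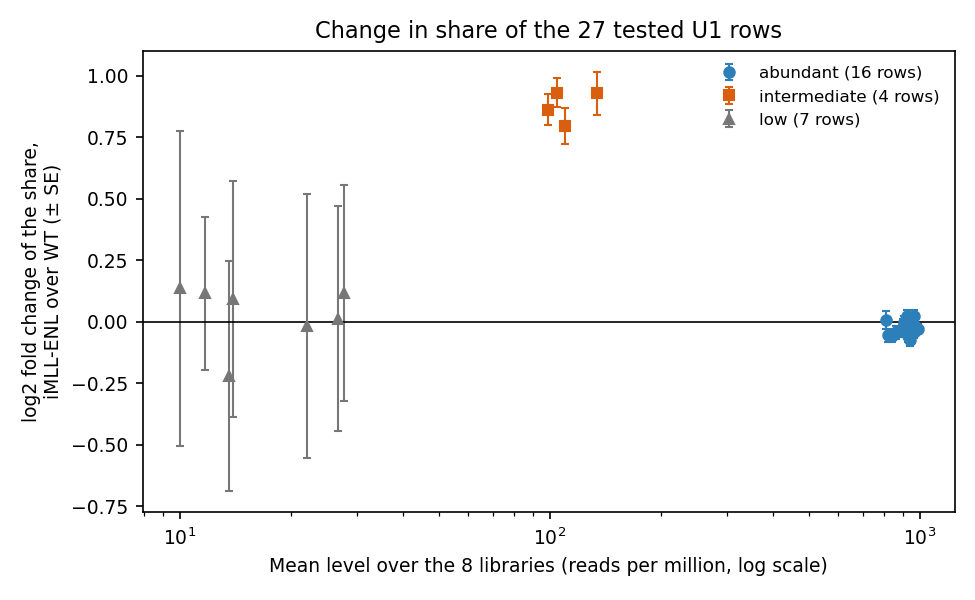
The difference in share of the U1 sum, iMLL-ENL over WT on the log2 scale (vertical axis), of the 27 tested U1 rows against their mean level over the 8 libraries in RPM (horizontal axis, log scale). Points are rows and bars are 1 SE of the limma fit. The 4 intermediate rows lie at 0.80 to 0.93, the 16 abundant rows between -0.08 and 0.02, and the 7 low rows between -0.22 and 0.14 with long bars.

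The 22 low rows together held 191, 214, 232 and 277 RPM in iMLL-ENL replicates 1 to 4, against 113, 85.1, 194 and 199 RPM in WT replicates 1 to 4. As a share of the U1 sum this was 1.39, 0.823, 1.83 and 1.495% in iMLL-ENL replicates 1 to 4, against 1.27, 0.532, 2.53 and 1.09% in WT replicates 1 to 4. In both groups replicate 2 was lowest and replicate 3 highest in share, and the groups overlapped. Of the 7 low rows tested, none was called in the main fits. Their differences were 0.30 to 0.66 in level (log2 scale, limma adjusted p of 0.0843 to 0.484) and -0.22 to 0.14 in share (adjusted p of 0.747 to 0.984). Scaling moved the level calls. When the scaling total omitted the 5 highest rows, 6 of the 27 tested U1 rows were called higher, low rows among them. Scaling to the total of the rows gave the same 6. The share of all rows called with these scalings is not given here. The smallest difference in level among all tested U1 rows was that of U1.96-201, which had 11.03, 15.2, 14.3 and 18.5 RPM in iMLL-ENL replicates 1 to 4, against 10.9, 6.49, 16.1 and 15.7 RPM in WT replicates 1 to 4. It was 0.30 ± 0.31 (SE, adjusted p = 0.484) and turned to -0.07 and -0.20 with TMM scaling and quantile normalization.

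The 15 rows that missed the filter lay at 0.38 to 10.4 RPM in iMLL-ENL libraries and 0.42 to 6.93 RPM in WT libraries, the lowest of them near the level of 3 reads, 0.323 to 0.507 RPM. In a fit of all 964 rows without the filter, 10 of the 42 U1 rows were called higher and 1 lower, where 23.9% of all rows were called higher, 5.39% lower and 29.3% in either direction. The 10 were the 4 intermediate rows and 6 low rows, U1.3-201, U1.43-201, U1.44-201, U1.48-201, U1.58-201 and U1.61-201, with differences of 0.81 to 1.17 on the log2(RPM + 1) scale for the low ones and limma adjusted p of 0.00765 to 0.0487. These low rows are named because they passed that fit, a choice made with their values known. The row called lower in that fit, U1.179-201, had 1.18, 0.540, 0.680 and 0.380 RPM in iMLL-ENL replicates 1 to 4, against 3.36, 0.910, 2.20 and 4.63 RPM in WT replicates 1 to 4. The groups overlapped, since iMLL-ENL replicate 1 lay above WT replicate 2, and most iMLL-ENL values were a few reads. Its difference was -1.07 ± 0.33 (SE, limma adjusted p = 0.0413), and its share was not called (adjusted p = 0.0595). None of the 6 low rows called higher in level was called in share without the filter (limma adjusted p of 0.118 to 0.663). In U1.3-201 the groups also overlapped in level.

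The authors' deposited table lists their own log2 fold changes and false discovery rates (FDR) for the same rows. In the authors' deposited table, 2 of the 42 U1 rows had an FDR under 0.05, where 16.5% of all 964 rows did. The first was U1.199-201, with the authors' deposited log2 fold change of 1.05 and FDR of 0.0440. The other was U1.179-201, with the authors' deposited log2 fold change of -2.34 and FDR of 0.00115. In the authors' deposited table the log2 fold change was 1.03 for U1.83-201, 0.91 for U1.210-201 and 0.95 for U1.195-201, with FDRs of 0.0540, 0.0880 and 0.0937. In the authors' deposited table the 16 abundant rows had log2 fold changes of 0.01 to 0.11, and the median was 0.11 over the U1 rows and -0.10 over all rows.

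Other spliceosomal snRNAs set the U1 sum in context. U2 pairs with the branch point, U4 holds U6 inactive until the spliceosome is activated, and U5 and U6 act at the catalytic centre. The remaining families were U11, U12, U4atac and U6atac of the minor spliceosome and U7, which processes histone mRNA ends. Of these 9 families, 4 were called higher in iMLL-ENL (U2, U4, U12 and U4atac) and 0 lower, beside 44.8% of all 67 families called in either direction. The number of calls does not set these families apart. The median difference was 0.49 over the 9 families and 0.24 over all 67 (log2 scale). U2 averaged 4564 ± 831 RPM in iMLL-ENL and 3001 ± 353 RPM in WT, and U4 109 ± 20.6 RPM in iMLL-ENL and 40.2 ± 4.31 RPM in WT (SD, n = 4 each). The differences were 0.60 ± 0.16 for U2 (log2 scale, SE, limma adjusted p = 0.0160) and 1.40 ± 0.16 for U4 (adjusted p = 0.00026), against 0.52 ± 0.34 for U1.

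The U1 sum was also divided by that of each other major snRNA family within a library, and the groups overlapped in all 4 ratios. U1 over U2 was 3.10, 6.91, 2.93 and 3.24 in iMLL-ENL replicates 1 to 4, against 3.28, 5.77, 2.51 and 5.23 in WT replicates 1 to 4. U1 over U4 was 162, 193.3, 119 and 168 in iMLL-ENL replicates 1 to 4, against 222, 452, 193.1 and 397 in WT replicates 1 to 4. Only iMLL-ENL replicate 2 reached into the WT range of U1 over U4, just above WT replicate 3. The mean log2 difference of U1 over U4 was -0.90, with an exact two-sided permutation p of 0.0571 over the 70 assignments of libraries, adjusted p = 0.229 over the 4 ratios. U1 over U5 was 7.80, 14.3, 7.43 and 13.6 in iMLL-ENL replicates 1 to 4, against 6.81, 7.21, 10.6 and 19.99 in WT replicates 1 to 4. U1 over U6 was 8.21, 12.5, 6.30 and 10.5 in iMLL-ENL replicates 1 to 4, against 7.47, 2.41, 10.3 and 18.1 in WT replicates 1 to 4. WT replicate 2 was the lowest library of all in U1 over U6, and WT replicate 4 the highest in U1 over U5 and U1 over U6. The mean log2 differences were -0.07 for U1 over U2, 0.03 for U1 over U5 and 0.26 for U1 over U6, with exact permutation p of 0.914, 0.971 and 0.743 and an adjusted p of 0.971 for each. The smallest p this design allows is 0.0286, and 1 ratio alone at that p would have an adjusted p of 0.114, so a single ratio could not pass the threshold of 0.05 however large its difference. Of the reads of U1, U2, U4, U5 and U6 together, U1 took 63.3, 76.9, 60.8 and 67.4% in iMLL-ENL replicates 1 to 4, against 62.9, 57.8, 62.7 and 76.97% in WT replicates 1 to 4, so the groups overlapped here too. Without WT replicate 2 the difference of U1 over U6 was -0.30.

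**Figure D5:**
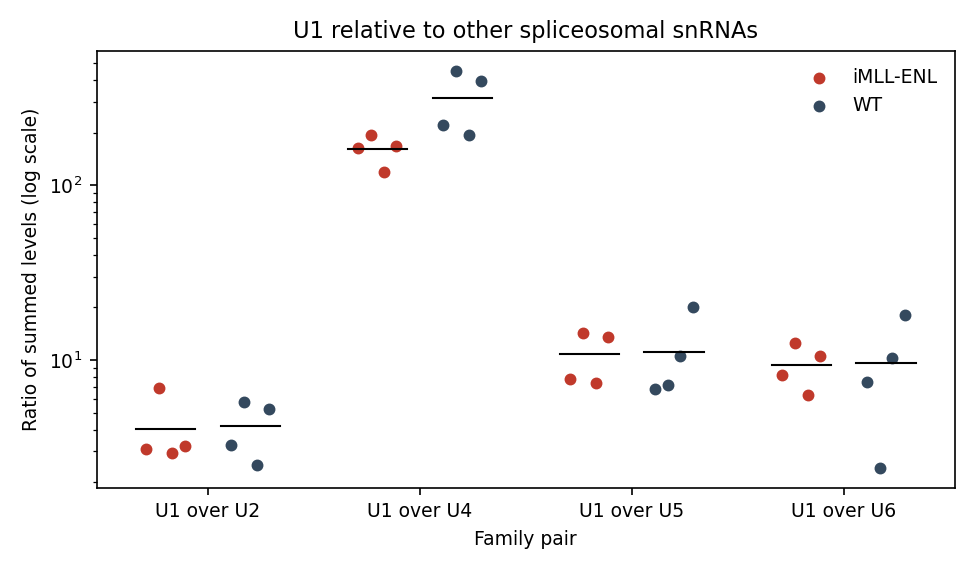
The U1 sum divided by the sum of U2, U4, U5 or U6 in the same library (vertical axis, log scale), with iMLL-ENL left of WT for each pair. Points are libraries and lines are group means (n = 4 each). The groups overlap in all 4 ratios, and for U1 over U4 by 1 library, at 193.3 in iMLL-ENL replicate 2 and 193.1 in WT replicate 3.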

How the data were processed

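Small RNA libraries from 4 iMLL-ENL and 4 WT samples were analysed, grouped by genotype as the labels give it. The authors deposited 1 table of 964 rows with a value per library, and its name calls the values TPM, but within each library they are whole multiples of a step that is the same for all rows, so they are taken as RPM: 100% of values under 60 RPM were whole multiples within 0.0055 RPM. Per the file headers, further columns give the authors' log2 fold change, mean log2 CPM, p-value and FDR. The genome build was GRCm38, per the submitters' processing notes. The sources used here do not give the aligner, the annotation, or how multiply mapped reads and molecular indexes were treated. No count model was run, because the values are scaled and what 1 read is worth could not be established beyond doubt in every library, so read numbers and the intervals made from them are estimates.

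Rows were tested with limma 3.58.1 (statmod 1.5.0, R 4.3.3) on log2(RPM + 1), with trended and robust prior variance, two-sided, with Benjamini-Hochberg adjustment over the whole table at 0.05. Fold changes on this scale understate low rows. Shares were log2((row + 1) / (family sum + 1)) for 630 tested rows in families of several rows, and family sums were fitted over 67 families without a filter. Limma's prior pools variance over the rows fitted together. Ratios used exact permutation tests (Python 3.11.15, scipy 1.17.1, numpy 2.4.6, pandas 2.3.3), sequences were aligned with biopython 1.88, and figures drawn with matplotlib 3.10.9. The fits were tried on simulated data whose noise was independent between rows, unlike that of the U1 rows. This checks the computation only.

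Reads behind the scale were estimated at 5910000 to 9270000 per library, and these rows took 26.0 to 29.2% of it in iMLL-ENL and 30.0 to 38.5% in WT. Rows named with values in every library were the 5 with the highest mean, those called in level, up to 5 called in share, and the tested row with the lowest fold change. U1.179-201 and the low rows called without the filter were added after their values were seen. The rows, families and lists were chosen with earlier results of these data known. Alternatives were other scalings, pseudocounts, variance models, no filter, a replicate block and leaving out each library.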

Additional observations from a re-analysis of the deposited data

Results flagged for a closer look

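Within each group of 4 libraries, 54 groups of values were searched for a library far from the other three, of which 3 were found. Chance finds about 1 in 20 such groups. U1 over U2 was 6.91 in iMLL-ENL replicate 2, against 2.93 to 3.24 in the other iMLL-ENL libraries. The share of U1.206-201 was 6.27% of the U1 sum in WT replicate 3, against 6.49 to 6.51% in the other WT libraries. The share of U1.199-201 was 0.493% in WT replicate 4, against 0.600 to 0.621% in the other WT libraries, and without this library its difference in share was still past the threshold. The causes were not tested.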

How the results depend on the processing

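The share calls of the 4 intermediate rows held in all 14 alternatives, with 4 to 5 U1 rows called. Of the U1 row levels, 26 were called with sample quality weights and 11 without the level filter (10 higher and 1 lower). When the scaling total omitted the 5 highest rows, 6 were called, and scaling to the total of the rows also gave 6. Without single libraries 1 to 5 were called, with 1 left without WT replicate 1. Apart from the fit without the filter, the share of all rows called in these alternatives is not given here. U1.199-201 was called in level in all 19 alternatives, at 1.06 to 1.77. The U1 sum was 0.84 when the scaling total omitted the 5 highest rows (adjusted p = 0.0478) and 0.31 to 0.73 without single libraries. Scaling to the total of the rows gave 0.81 (adjusted p = 0.0608). Leaving out single libraries gave -0.36 to 0.11 for U1 over U2, -1.11 to -0.70 for U1 over U4, -0.16 to 0.36 for U1 over U5 and -0.30 to 0.67 for U1 over U6, so that the direction of all but U1 over U4 turned. The level of U1.96-201 was -0.072 with TMM scaling and -0.20 with quantile normalization, and its share -0.62 to 0.13 without single libraries. The share call of U1.203-201 was also lost with a pseudocount of 0.1, without a trend, without the filter and with the replicate block (adjusted p = 0.0516, 0.0764, 0.123 and 0.126). For the named rows, 337 values kept direction and side of the threshold, 17 lost the call, 6 gained one and 3 turned. The causes were not tested.

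The deviations of same-numbered libraries from their group means had correlations of 0.389, 0.286, -0.133 and 0.420 for replicates 1 to 4. Because replicate 3 was negative, the numbers were not taken as pairs in the main fits. The other replicates were positive, and 6 of 8 libraries correlated best with their own number. The labels do not say whether same-numbered libraries share a batch. With the replicate block the U1 sum was 0.52 (adjusted p = 0.0578), 4 U1 rows were called in level and 4 in share (without U1.203-201), and the ratios had adjusted p of 0.5 to 1, where blocked permutations allow no p under 0.125. Rows near 3 reads are limited by depth.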
